A study of Homo sapiens with 2 samples.

Results

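The GATA3 locus was examined in ATAC-seq peak lists of Jurkat and RPMI-8402, an assay that reads open chromatin from where the Tn5 enzyme cuts and tags DNA. Both are established human cell lines of T-ALL (T-cell acute lymphoblastic leukaemia), a malignancy of developing T cells. Each line had 1 library, with cells grown in the same tetracycline-free medium and given no treatment that the labels name. The members are all deposited peaks whose summit lies on chromosome 10 between positions 7800000 and 8950000 (hg19), around GATA3 at 8096667 to 8117164 on the plus strand. They numbered 10 of 25189 peaks in Jurkat and 12 of 24603 in RPMI-8402, which merge into 14 of 32792 regions. With 1 library per line, no value has a replicate error and no difference between the lines was tested. Intervals are 95% and cover counting error only.

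GATA3 encodes a zinc-finger transcription factor that binds GATA sequences. It is needed at several steps of T-cell development, from early thymic progenitors to CD4 T cells, and it directs the T helper 2 programme. In T-ALL of the TAL1 type, to which both lines are usually assigned, GATA3 is known as a partner of TAL1, RUNX1 and MYB. The gene is followed by a wide stretch without protein-coding genes, and in mice an enhancer active in T and NK cells lies far downstream of Gata3 in the corresponding stretch. GATA3-AS1 is a long non-coding RNA gene on the opposite strand. It lies upstream of the GATA3 start given above, but within the RefSeq span of GATA3, which reaches further upstream.

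RefSeq places 6 starts of GATA3 in GRCh38.p14. One of them, called the main start here, lies 20510 bp before the gene's end, against 20497 bp between the start and end of the gene on hg19 given above, a difference of 13 bp. No hg19 annotation or sequence was used, and no position was converted between the builds. Peaks and RefSeq starts are set side by side only by their distance from the main start, each within its own build. The starts of 2 neighbouring genes upstream give a rough measure of how far such distances can be read. It also holds the offset of each summit from its start, and no such check was made downstream of the gene. In both lines a summit lay 266512 bp upstream of GATA3 on hg19, and RefSeq puts the start of ATP5F1C 266511 bp upstream in GRCh38.p14. The TAF3 start, 236183 bp upstream, was 33 bp from a Jurkat summit and 45 bp from a RPMI-8402 summit. The same peaks also spanned starts on the opposite strand. That of KIN was 183 bp from the summit in both lines, and that of LOC105376392 175 bp in Jurkat and 97 bp in RPMI-8402.

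The 250 bases before 4 of the 6 GATA3 starts are shown, because each of these starts lies within a peak of at least 1 line by that measure. Capitals mark letters matched on either strand by any of the searched motifs. The GATA motif was searched in the spelling AGATAA, in the spelling AGATAG, in the spelling TGATAA and in the spelling TGATAG. The E-box, bound by TAL1 with its partners, was searched as CANNTG. The RUNX motif was searched as TGTGGT and also under the spelling TGCGGT. The core of the ETS motif was searched as GGAAG. Of general promoter letters, CCAAT was searched, then the GC box, spelled GGGCGG, and the TATA box, spelled TATAAA. No match overlapped a match of another motif in these windows.
Start 9355 bp upstream of the main start (GRCh38.p14, chr10:8045083-8045332, plus strand): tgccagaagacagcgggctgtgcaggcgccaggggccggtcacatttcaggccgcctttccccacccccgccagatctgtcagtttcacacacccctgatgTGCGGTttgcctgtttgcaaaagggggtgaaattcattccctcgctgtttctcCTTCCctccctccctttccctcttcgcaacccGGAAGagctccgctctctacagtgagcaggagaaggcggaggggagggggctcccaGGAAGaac
Start 1047 bp upstream of the main start (GRCh38.p14, chr10:8053391-8053640, plus strand): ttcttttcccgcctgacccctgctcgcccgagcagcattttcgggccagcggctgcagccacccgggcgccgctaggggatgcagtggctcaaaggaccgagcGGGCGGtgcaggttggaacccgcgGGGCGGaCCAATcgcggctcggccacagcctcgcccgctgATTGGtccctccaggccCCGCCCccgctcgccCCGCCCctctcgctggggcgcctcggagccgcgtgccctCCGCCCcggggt
Main start (GRCh38.p14, chr10:8054438-8054687, plus strand): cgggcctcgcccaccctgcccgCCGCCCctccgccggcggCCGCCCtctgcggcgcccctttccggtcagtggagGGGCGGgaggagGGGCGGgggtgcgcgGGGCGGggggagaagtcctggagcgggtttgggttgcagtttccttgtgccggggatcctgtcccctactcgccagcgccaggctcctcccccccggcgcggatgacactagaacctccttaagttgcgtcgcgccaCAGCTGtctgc
Start 5769 bp downstream of the main start (GRCh38.p14, chr10:8060207-8060456, plus strand): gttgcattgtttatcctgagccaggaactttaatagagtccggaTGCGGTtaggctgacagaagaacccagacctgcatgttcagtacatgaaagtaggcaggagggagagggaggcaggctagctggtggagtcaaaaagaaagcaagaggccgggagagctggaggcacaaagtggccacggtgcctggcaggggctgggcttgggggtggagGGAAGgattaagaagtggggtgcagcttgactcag
The windows before the main start and before the start 1047 bp upstream of it had a GC content of 73.6% and 74.8%, against a median of 58% over the 34943 RefSeq windows of the same length. Each held 5 GC boxes, a motif found at least once in 42.5% of all windows. The upstream one also held 2 CCAAT boxes, found at least once in 32.0% of all windows. The share of windows with several matches of a motif is not given here. The E-box letters occurred once before the main start (61.8% of all windows). The window before the start 9355 bp upstream held 3 ETS matches (at least 1 in 65.1% of all windows) and 1 RUNX match (16.3%). The window before the start inside the gene held 1 match of each of these motifs and no GC box. None of the 4 windows held the GATA letters, which 22.4% of all windows hold. A match is a description of the letters and not evidence of a bound site.

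Both lines had an accessible region over the GATA3 promoter, and its height was nearly equal in the 2 libraries. Signal is given as the summit pileup, meaning how many fragments the peak caller counted over its highest base, which was solved from the deposited fold enrichment and p-value. The Jurkat peak, at positions 8095261 to 8097051, had a pileup of 81 (exact Poisson interval 64.3 to 101). The RPMI-8402 peak, at positions 8095408 to 8096621, had a pileup of 78 (61.7 to 97.3). These pileups were higher than those of 75% of all Jurkat peaks and 77.4% of all RPMI-8402 peaks. The log2 of the RPMI-8402 over the Jurkat pileup was 0.12 (−0.35 to 0.58) after centring on the median of all 16494 pairs in the genome, which was −0.17. Without scaling it was −0.05 (−0.52 to 0.41), and scaled by each library's genome-wide background −0.36 (−0.82 to 0.11), so its sign depends on the scaling. All 3 intervals include 0, and no difference was detectable at this depth.

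The highest point of this region was not at the main start in either line. The Jurkat summit lay 985 bp and the RPMI-8402 summit 1038 bp upstream of it. RefSeq has a GATA3 start 1047 bp upstream and the nearest GATA3-AS1 start, on the opposite strand, 1204 bp upstream. The summits of Jurkat and RPMI-8402 were thus 62 bp and 9 bp from that upstream GATA3 start, whose sequence is the second of the 4 above, and 219 bp and 166 bp from the GATA3-AS1 start. The peaks differed in extent. In Jurkat the peak ran from 1406 bp upstream to 384 bp downstream of the main start, a width of 1791 bp that exceeds 99.6% of that list. In RPMI-8402 it ended 46 bp before the main start, with a width of 1214 bp that exceeds 90.9% of that list. A promoter class of summits within 1 kb of the main start therefore held the Jurkat peak and missed its RPMI-8402 partner, which a class of 2 kb includes.

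RPMI-8402 had a further upstream peak that was not called in Jurkat, at positions 8086999 to 8087512. Its summit lay 9517 bp upstream of the main start and had a pileup of 34 (23.5 to 47.5). That was higher than 45.2% of all RPMI-8402 peaks, and higher than 80.8% of those called in RPMI-8402 only. The median pileup was 38 in the whole list and 21 in peaks called in RPMI-8402 only. The peak spanned the distance of the most upstream RefSeq start of GATA3, 9355 bp, whose window is the first of the sequences above. The nearest Jurkat peak was the promoter peak, 7748 bp away. Over a Jurkat background raised by the same factor as in RPMI-8402, 2.74 times the genome-wide value, a summit would have needed a pileup of 16 to pass the weakest p-value of the Jurkat list. The Jurkat pileup at this site is not in the peak list and could be anything below the calling limit.

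Inside the gene, 2 peaks were called in each line, and each overlapped a peak of the other. In Jurkat the first, at positions 8102021 to 8102373, had its summit 5512 bp after the main start and a pileup of 34 (23.5 to 47.5). Its RPMI-8402 partner, at positions 8101632 to 8102520, had its summit at 5690 bp and a pileup of 29 (19.4 to 41.6). The RPMI-8402 peak was 2.52 times as wide, 889 bp against 353 bp, and spanned the distance of the RefSeq start 5769 bp inside the gene. The Jurkat peak ended short of that start, 5706 bp after the main start. The second Jurkat peak, at positions 8103175 to 8103765, had its summit at 6983 bp and a pileup of 26 (16.98 to 38.1). Its partner, at positions 8103036 to 8103667, had its summit at 6681 bp and a pileup of 29 (19.4 to 41.6). The centred log2 ratios were −0.06 (−0.83 to 0.70) and 0.33 (−0.49 to 1.15), and both intervals include 0. The second turned to −0.14 (−0.96 to 0.68) when scaled by the genome-wide background. Whether these sites are exonic or intronic was not analysed here.

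**Figure D1:**
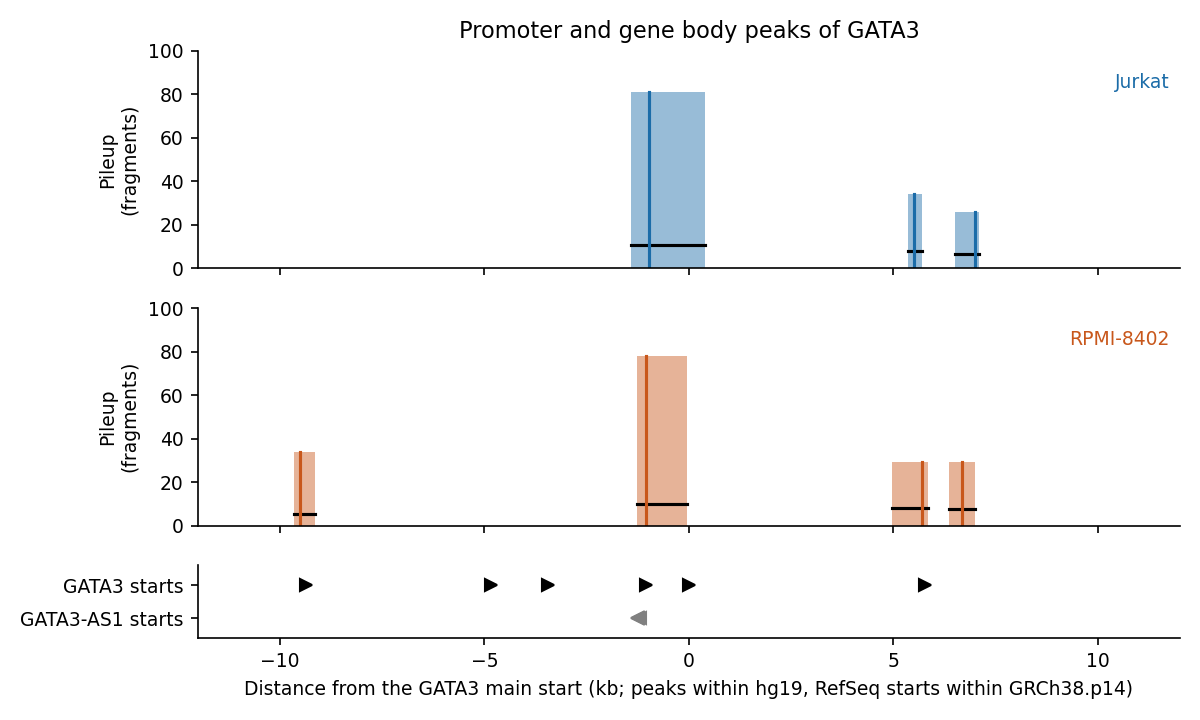
Peaks within 12 kb of the GATA3 start in Jurkat (top) and RPMI-8402 (middle): bars show the extent of each peak along the distance from the main start in kb and the pileup of its summit in fragments, vertical lines the summit, black lines the peak caller's local background. Triangles (bottom) mark RefSeq starts by their distance within GRCh38.p14; the promoter summits, with pileups of 81 and 78, lie near the start 1047 bp upstream, and the peak 9517 bp upstream is called in RPMI-8402 only.

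The gene body peaks stood out by a low enrichment for their pileup, over a high local background. MACS2 is known to compute the deposited fold as the pileup plus 1 over the background plus 1, and to take the larger of a genome-wide and a local value as background. Genome-wide, Jurkat had 1.59 and RPMI-8402 1.96 background fragments over each base. At the gene body peaks it was 8.06 and 6.59 in Jurkat and 8.24 and 7.52 in RPMI-8402, between 3.84 and 5.07 times these values. At the promoter the lines had 10.7 and 9.99 in the same order. The deposited folds of the gene body peaks were 3.87 and 3.56 in Jurkat and 3.25 and 3.52 in RPMI-8402. Between 0.845% and 2.95% of all peaks in the same list had a lower fold, while between 35.9% and 46.6% had a lower pileup. The far downstream Jurkat peak at 384.1 kb, with a pileup of 30, had a fold of 9.36 over a background of 2.31. Both gene body peaks of both lines were lost when −log10 q had to be at least 10. Of all peaks in the same list, 23.8% and 10.3% in Jurkat and 8.28% and 11.9% in RPMI-8402 had a lower −log10 q than these.

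**Figure D2:**
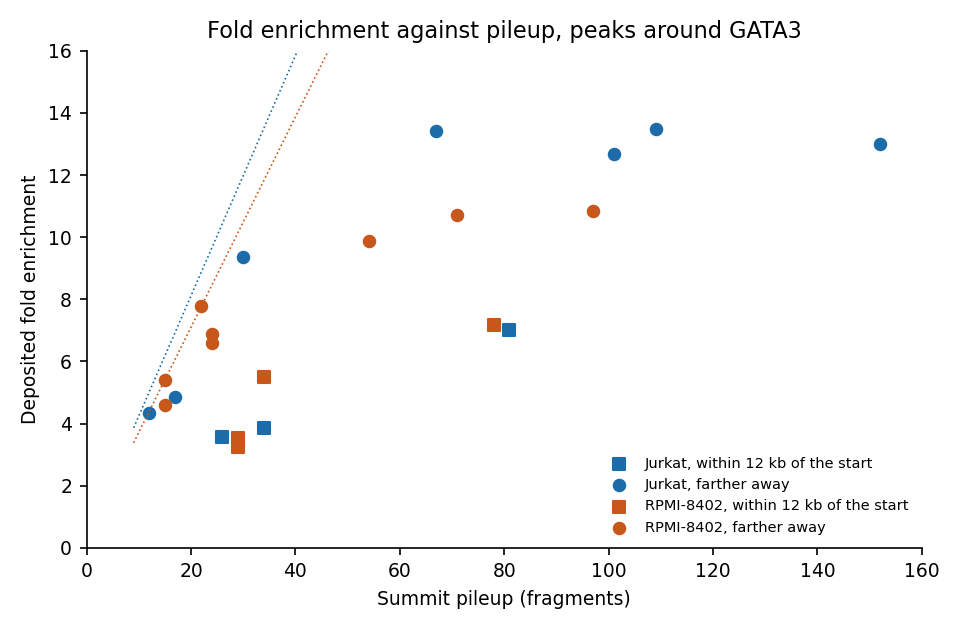
Deposited fold enrichment against summit pileup in fragments for the 22 peaks around GATA3, with squares for peaks within 12 kb of the start, circles for the others, and dotted lines for the fold expected over the genome-wide background of each library. The squares lie below the circles of like pileup in both lines.

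Downstream of the gene, between its end and position 8950000, 4 peaks were called in Jurkat and 5 in RPMI-8402, with summits between 184.5 kb and 384.2 kb after the start. RefSeq lists 10 lncRNA genes, 5 pseudogenes and 0 protein-coding genes in this stretch by distance. The strongest was at 277.8 kb in Jurkat and 277.7 kb in RPMI-8402. The Jurkat peak, at positions 8374014 to 8374780, reached a pileup of 101 (82.3 to 123), and its deposited fold was 12.7. Its RPMI-8402 partner, at positions 8374082 to 8374709, reached 71 (55.5 to 89.6), with a deposited fold of 10.7. In Jurkat the pileup there was above that of the promoter, 81, and in RPMI-8402 it was below that of the promoter, 78, with overlapping intervals in both lines. On the deposited fold this element was the higher in both lines, with 12.7 against 7.01 in Jurkat and 10.7 against 7.19 in RPMI-8402. These folds divide by unlike local backgrounds, 7.04 at the element against 10.7 at the promoter in Jurkat and 5.72 against 9.99 in RPMI-8402. The centred log2 ratio between the lines was −0.34 (−0.80 to 0.11), an interval that includes 0. The ratio was −0.51 (−0.97 to −0.06) without scaling and −0.81 (−1.27 to −0.36) scaled by the genome-wide background. Both of these intervals leave out 0, with Jurkat the higher. The median of all pairs in the genome was also below 0 in these settings, at −0.17 and −0.47. Of all pairs, 28.9% had a lower ratio than this one.

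A pair of weaker downstream elements was called in both lines. At 190.4 kb the Jurkat peak, at positions 8286845 to 8287285, had a pileup of 17 (9.90 to 27.2). The RPMI-8402 peak there, at positions 8286784 to 8287285, had a pileup of 24 (15.4 to 35.7) at 190.5 kb. The centred log2 ratio was 0.67 (−0.29 to 1.66), the highest of the pairs around GATA3. At 384.1 kb the Jurkat peak, at positions 8480605 to 8480999, had a pileup of 30 (20.2 to 42.8). Its RPMI-8402 partner, at positions 8480633 to 8481102, had a pileup of 24 (15.4 to 35.7) at 384.2 kb, with a centred log2 ratio of −0.15 (−0.99 to 0.67). By distance this last pair fell within the lncRNA gene LOC105376397, the only annotated gene downstream of GATA3 to hold a summit in this window.

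The other downstream peaks were each called in 1 line. RPMI-8402 had a peak with a pileup of 15 (8.40 to 24.7) at 184.5 kb, positions 8280838 to 8281294, which was 5550 bp from the nearest Jurkat peak. It also had one with a pileup of 22 (13.8 to 33.3) at 311.5 kb, positions 8407994 to 8408500. Jurkat had a peak with a pileup of 12 (6.20 to 21.0) at 305.8 kb, positions 8402360 to 8402674, and these last peaks of the 2 lines were separated by 5319 bp. The pileup of the Jurkat peak was higher than that of 2.78% of its list, and a RPMI-8402 summit would have needed a pileup of 12 there to be called, over a background raised by the same factor. For the RPMI-8402 peaks, both over the genome-wide background, a Jurkat summit would have needed a pileup of 9. The calls at 184.5 kb and 305.8 kb were therefore not distinguishable from a signal just below the limit in the other line.

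Long stretches on either side of these elements held no peak in either line. From 7.1 kb to 184.2 kb after the start, no peak was called over 177 kb, a length reached by 12.4% of the 31606 autosomal stretches between merged peaks, whose median was 39.7 kb. After the element at 384 kb, neither line had a peak for 728 kb, of which 469 kb lie in the window. Of the autosomal stretches, 262 (0.829%) were at least as long, centromeres and other unmappable sequence included. The next peaks were 1112 kb after the start in RPMI-8402, with a pileup of 25, and 2955 kb after it in Jurkat, with a pileup of 12. Below the window, the nearest peaks outside it lay 367.3 kb upstream in both lines, with pileups of 10 and 17.

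**Figure D3:**
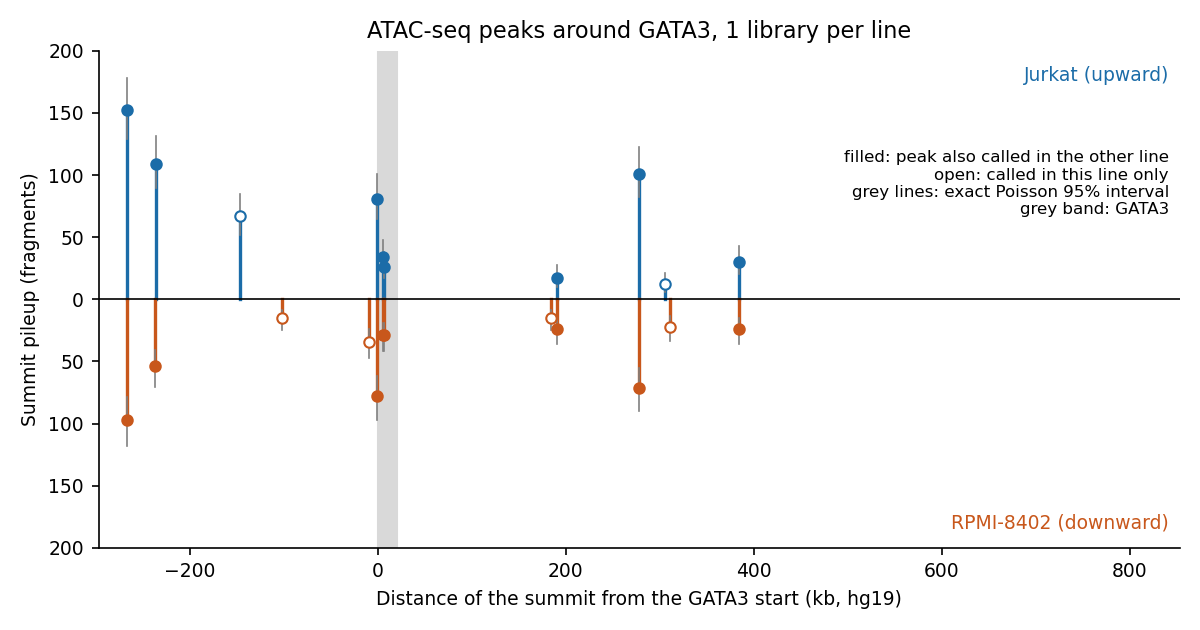
Summit pileup in fragments of every peak in the window against its distance from the GATA3 start in kb, upward for Jurkat and downward for RPMI-8402, with exact Poisson 95% intervals; filled circles are called in both lines, open circles in 1 line. The far downstream element near 278 kb, with pileups of 101 and 71, has intervals that overlap those of the promoter, and no peak follows the element at 384 kb.

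Upstream of the promoter, the 2 strongest regions lay at the starts of neighbouring genes. The first spanned the starts of ATP5F1C, which encodes the gamma subunit of the mitochondrial ATP synthase, and of KIN, a gene for a DNA-binding protein on the opposite strand. It had a pileup of 152 (129 to 178) in Jurkat, at positions 7829550 to 7830631, and of 97 (78.7 to 118) in RPMI-8402, at positions 7829472 to 7830753. The second lay at the start of TAF3, which encodes a subunit of the general transcription factor TFIID. It had a pileup of 109 (89.5 to 131) in Jurkat, at positions 7860075 to 7861064, and of 54 (40.6 to 70.5) in RPMI-8402, at positions 7860216 to 7861103. Both were higher in Jurkat, with centred log2 ratios of −0.48 (−0.86 to −0.10) and −0.84 (−1.34 to −0.36). On the deposited fold, which divides by the local background, the centred log2 ratios were −0.02 and −0.21. That background was also higher in Jurkat, with 10.8 against 8.03 fragments per base at the first region and 7.15 against 4.58 at the second. How far the peaks themselves add to it was not tested.

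The other upstream peaks were each called in 1 line and lay between the starts of TAF3 and GATA3. The Jurkat peak at positions 7950490 to 7951130, 146.0 kb upstream and by distance within TAF3, reached a pileup of 67 (51.9 to 85.1), and its deposited fold was 13.4. Its pileup was higher than that of 69.2% of all Jurkat peaks and of 97.6% of those called in Jurkat only. The nearest RPMI-8402 peak was 44308 bp away, and a RPMI-8402 summit would have needed a pileup of 17 to be called over a background raised by the same factor, 2.57. That RPMI-8402 peak, at positions 7995439 to 7995834, lay 101.2 kb upstream and by distance also within TAF3. It had no Jurkat partner and a pileup of 15 (8.40 to 24.7), higher than that of 6.43% of its list. A Jurkat summit would have needed a pileup of 10 there, over a background raised by the same factor, 1.27. This call too was therefore not distinguishable from a signal just below the limit in the other line.

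Across the window, 8 of the 10 Jurkat peaks, or 80% (exact binomial interval 44.4 to 97.5%), overlapped a RPMI-8402 peak, against 67.4% of all Jurkat peaks. In RPMI-8402, 8 of 12 had a Jurkat partner, or 66.7% (34.9 to 90.1%), against 68.1% of all RPMI-8402 peaks. Both intervals contain the share of the whole list. None of the 8 pairs differed by 2-fold or more after centring, against 14.1% of all pairs in the genome, with Jurkat the higher in 4.89% and RPMI-8402 in 9.21%. Their centred log2 ratios ran from −0.84 to 0.67 with a median of −0.11, 5 below and 3 above 0, and the interval included 0 in 6 of them. The exceptions under centring were the ATP5F1C and TAF3 regions. Of all pairs, 21.1% and 7.89% had a lower centred ratio than these regions. The share of all pairs whose interval leaves out 0 is not given here. The interval of the element at 277.8 kb also left out 0 without scaling and under scaling by the genome-wide background, which made 3 of 8 pairs. Each of these scalings moves all ratios by the same constant, which puts the median of all pairs at −0.17 and −0.47. With that shift, 6 and 7 of the 8 ratios lay below 0, and 1 pair, at TAF3, past 2-fold. The shares of all pairs below 0 or past 2-fold in these settings are not given here. Summits of the pairs lay 0 to 302 bp apart, with a median of 101.5 bp against 67 bp for all pairs.

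**Figure D4:**
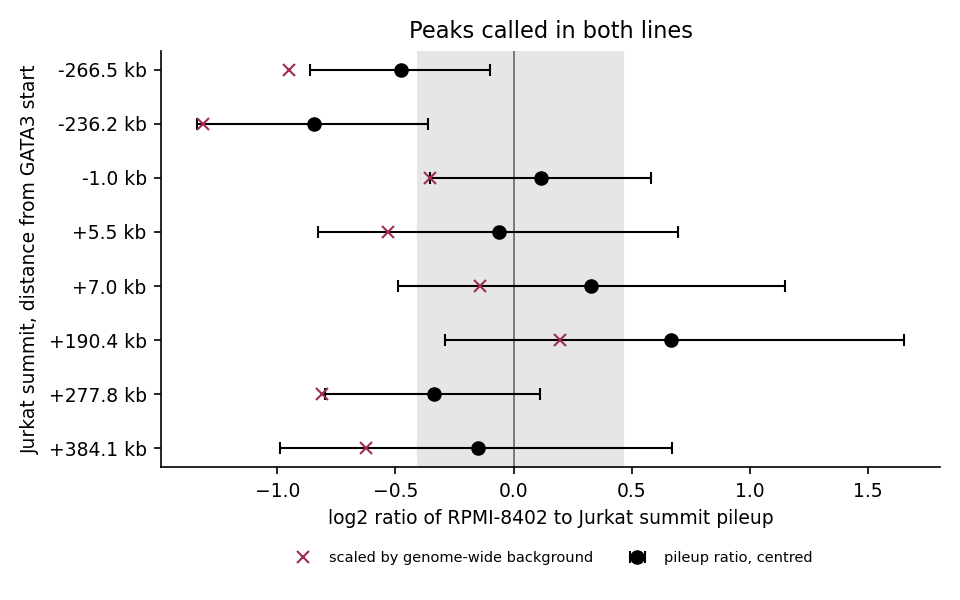
Log2 ratio of RPMI-8402 to Jurkat summit pileup for the 8 regions called in both lines, ordered by distance from the GATA3 start: circles are centred on all pairs, with exact conditional 95% intervals, crosses are scaled by each library's genome-wide background, and the grey band is the 25th to 75th percentile of all pairs, −0.40 to 0.46. The centred intervals of the 2 top rows, at ATP5F1C and TAF3, leave out 0, and those of the 6 GATA3 rows include it, while the crosses lie lower in every row.

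The level of the surrounding chromosome was close to that of the genome. Pairs at 5 to 10 Mb of chromosome 10, which include the window, had a median centred log2 ratio of 0.03 over 32 pairs, and all 735 pairs of the chromosome had a median of 0.04. The number of DNA copies in each line was not measured, and its part in the ratios was not tested. The number of peaks was ordinary for a window of this size. Tiles of 1.15 Mb along the autosomes that held a peak in either line had a median of 9 Jurkat and 8 RPMI-8402 peaks, and 40.6% and 28.2% of the 2364 tiles held more than the 10 and 12 found here.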

How the data were processed

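Chromatin accessibility was measured by ATAC-seq in read pairs of 150 bp (per the labels' protocols), with 1 library each of Jurkat and RPMI-8402. The build hg19 and the tools Bowtie2, Picard, SAMtools and MACS2 (2.1.1.2016030) come from the submitters' processing notes, and the sources used here give no filters or parameters. The deposited lists, called per library, give each peak's position and summit, a score (10 times the −log10 p-value), a fold enrichment, and the −log10 p-value and −log10 q-value, all as the authors' peak caller wrote them. The depth of each library is unknown beyond the genome-wide backgrounds, and the weakest called pileup was 9 in Jurkat and 10 in RPMI-8402.

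Pileup and background were solved from the deposited fold and p-value, assuming MACS2's Poisson upper tail. The result was whole within 0.01 in 100% of peaks. Whether the caller counted read pairs or single reads is not given, so a fragment stands for either. The intervals take these counts as independent, and would be too narrow if both reads of a pair were counted. Tested on simulated data made with the same formula, 100% of 25189 and 24603 pileups were recovered. Mitochondrial peaks were left out. Peaks counted as shared from 1 bp of overlap, checked against bedtools 2.31.1, and pairs are peaks with exactly 1 partner each. Ratios have exact conditional binomial intervals. Python 3.11.15, numpy 2.4.6, pandas 2.3.3 and scipy 1.17.1 were used. The locus and the lists were chosen with earlier results of these data known. The rule for named peaks took all promoter and gene body peaks, the 5 strongest downstream peaks per line by −log10 q, the strongest unpartnered peaks and the 3 largest pair ratios per direction. The RPMI-8402 peak 101.2 kb upstream falls outside it and is given to account for every peak. No gene was named for likeness to GATA3, as 2 libraries give no measure of it. Promoters of other T-cell factors and of marker genes were not analysed here, since no hg19 annotation was used. Alternatives were a stricter q-value, other overlaps, other scalings, the deposited fold, the window edge and the promoter width.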

Additional observations from a re-analysis of the deposited data

How the results depend on the processing

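Counts were taken as moved when they changed by over 1.5 times, shares when they left their 95% interval, and log2 ratios when they moved by more than the half-width of theirs (for the median, that of the summed pileups). By that measure 6 of 28 alternative values moved. With −log10 q of at least 10, the peaks around GATA3 fell from 10 to 6 in Jurkat, of which 2 were downstream, and from 12 to 8 in RPMI-8402 (a change of exactly 1.5 times), as fewer peaks pass. The cut also takes peaks out of the whole lists. In Jurkat 23.8% of all peaks had a −log10 q below 9.17 and 50.3% below 20.8. In RPMI-8402 12.4% were below 7.03 and 33.6% below 12.6. The median centred log2 ratio of the remaining pairs around GATA3 was −0.30. Scaling by the genome-wide background put the median of the pairs at −0.58 and the promoter pair at −0.36, because that scaling puts the median of all pairs in the genome at −0.47. The promoter pair, 0.12 after centring, thus changed sign there, and also without scaling (−0.05), within intervals that include 0 in each case. The pair at 277.8 kb, −0.34 (−0.80 to 0.11) after centring, had an interval that left out 0 in both of these settings, at −0.81 (−1.27 to −0.36) and −0.51 (−0.97 to −0.06). Within 2 kb of the start, the number of RPMI-8402 promoter peaks was 1 instead of 0. Shares of overlapping peaks stayed within their intervals in all settings tried, from 70% to 83.3% in Jurkat and from 58.3% to 66.7% in RPMI-8402. Leaving out a replicate was not an option. No paired analysis was possible because both lines have a single library. The interval of the weakest pair, with pileups of 17 and 24, reaches from −0.29 to 1.66 on the log2 scale, which limits what single elements can show at this depth.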

Other observations

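The other 2 RefSeq starts of GATA3, 4834 bp and 3452 bp upstream of the main start, lay outside every called peak in both lines by distance. Their 250-base windows had GC contents of 62% and 66%. The first held 2 GC boxes, 1 CCAAT box, 1 ETS match and 1 match to the TATA box letters, which 10.8% of all windows hold. The second held 2 E-box matches, 1 RUNX match, 1 ETS match and 1 GC box. The nearest summits to these starts were those of the promoter peaks, 3849 bp and 2467 bp away in Jurkat and 3796 bp and 2414 bp away in RPMI-8402. LINC00708, a lncRNA gene 204.6 kb to 213.6 kb after the start, held 0 summits in either line, and neither did the lncRNA gene LOC105376395 at 39.5 kb to 42.9 kb.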
